A study of Rattus norvegicus with 24 samples.

Results

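To examine whether needle insertion, with or without current, was accompanied by a change of transcription after liver surgery, all needled rats were set against rats that had the operation alone. The comparison was chosen by treatment label and region. It took 12 libraries of needled rats and 6 libraries of hepatectomy alone (HT), which is 18 of the 24 mRNA libraries of the series, and left out the normal controls. The needled libraries were 3 of electroacupuncture (EA) and 3 of sham electroacupuncture (SEA) in each of 2 brain regions, the hypothalamic paraventricular nucleus (PVN) and the central amygdaloid nucleus (CEA), and each region had 3 HT libraries. All 18 came from male Sprague-Dawley rats that had part of the left liver lobe removed, were accustomed to a restraint device and were held in it awake, so that the operation and the restraint were shared by every group. EA rats had needles at Zusanli and Sanyinjiao with current before and after the operation, SEA rats had the same needles left unconnected, and HT rats had none. Needle insertion was therefore the difference between the groups, and current was passed in 6 of the 12 needled libraries only.

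The PVN holds the neurons that make corticotropin-releasing hormone, vasopressin, oxytocin and thyrotropin-releasing hormone, and through the first of these it drives the pituitary and the adrenal cortex during stress. The CEA is the main output nucleus of the amygdala, made mostly of inhibitory neurons, and it takes part in responses to fear and pain. Glucocorticoids from the adrenal cortex return to the brain, where they act on their nuclear receptors and raise genes such as Fkbp5, a co-chaperone of those receptors.

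Between 13152772 and 18607032 read counts were assigned to genes per library. Transcripts of the mitochondrial genome took 7.07 to 8.01% of the counts of PVN libraries and 3.8 to 14.4% of those of CEA libraries, among which EA replicate 2 was the lowest. The labelled regions differed in the summed level of their marker lists. The summed level of 11 PVN and neuroendocrine neuron markers was 707 to 1410 CPM (counts relative to library size, scaled between libraries by the TMM method) for PVN tissue and 49.5 to 207 CPM for CEA tissue, and that of 8 central amygdala markers was 575 to 741 CPM for PVN tissue and 1410 to 2470 CPM for CEA tissue. A large part of the amygdala sum was the enkephalin gene Penk, at 350 to 1170 CPM for CEA tissue. Isl1 and Sst of the same list overlapped between the regions. The sum of 8 striatum markers was 2510 to 7740 CPM for CEA tissue. The CEA libraries were less alike than the PVN libraries. The median correlation of a library with the others of its region, across genes on the log2 scale, was 0.982 to 0.984 among PVN libraries and 0.96 to 0.978 among CEA libraries.

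By edgeR no gene differed between needled and HT rats past the adjusted threshold, and DESeq2 called a few. With region as a covariate, 0 of 17539 genes (0%) had an adjusted p under 0.05 by the quasi-likelihood test of edgeR, the smallest being 0.0758 for Hrh3. An unadjusted p under 0.05 was reached by 743 genes that were higher in needled rats (4.24%) and by 860 that were lower (4.9%), 1603 in all against 877 if no gene differed. Log2 fold changes had a median standard error (SE) of 0.117. Within the PVN, 0 of 16973 genes passed (0%), with 402 higher (2.37%) and 493 lower (2.9%) at an unadjusted p under 0.05, and within the CEA, 0 of 16801 passed (0%), with 607 higher (3.61%) and 692 lower (4.12%). The CEA total of 1299 was 2777 without CEA HT replicate 1 and 937 without CEA HT replicate 2. DESeq2, the tool of the study, called 9 of 26325 genes in the pooled comparison at an adjusted p under 0.05 (0.0342%), 18 of 24454 in the PVN (0.0736%) and 22 of 20799 in the CEA (0.106%). For some of these calls most counts came from a single library, 67.7% for Rlim in the PVN and 66.3% for AABR07066020.1 in the CEA. The pooled test counted the 18 libraries as independent, although the design gives 3 rats a group. The genes of the next paragraphs are therefore described, with the DESeq2 value where it passed.

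Hrh3, which encodes the histamine H3 receptor, a receptor on nerve endings that restrains the release of histamine and of other transmitters, had the smallest p-value. It lies on chromosome 3, minus strand, from 175473078 to 175479395 in the coordinates of the count table, whose genome build was not settled. In the PVN its level was 125, 135 and 149 CPM in the 3 HT libraries and 81.5 to 110 CPM in the 6 needled libraries, with a median of 104 CPM. In the CEA it was 307, 311 and 364 CPM in HT and 177 to 259 CPM in needled rats, with a median of 218 CPM. Every needled library was below every HT library of its region. The log2 fold change was -0.52 (95% interval -0.70 to -0.35) over both regions, -0.46 (SE 0.09) in the PVN and -0.59 (SE 0.13) in the CEA. The adjusted p by DESeq2 was 7.69e-05. By edgeR it was 0.0345 without CEA EA replicate 2 and 0.0818 to 0.359 without any other single library, the largest without CEA HT replicate 2. Both arms of needling took part in the difference: the PVN level was 136 ± 12.1 CPM in HT against 106 ± 4.17 CPM in EA and 93.4 ± 14.7 CPM for SEA rats, and the CEA level was 327 ± 32.1, 234 ± 27.5 and 201 ± 26.7 CPM in the same order (mean ± SD, n = 3 each).

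**Figure D1:**
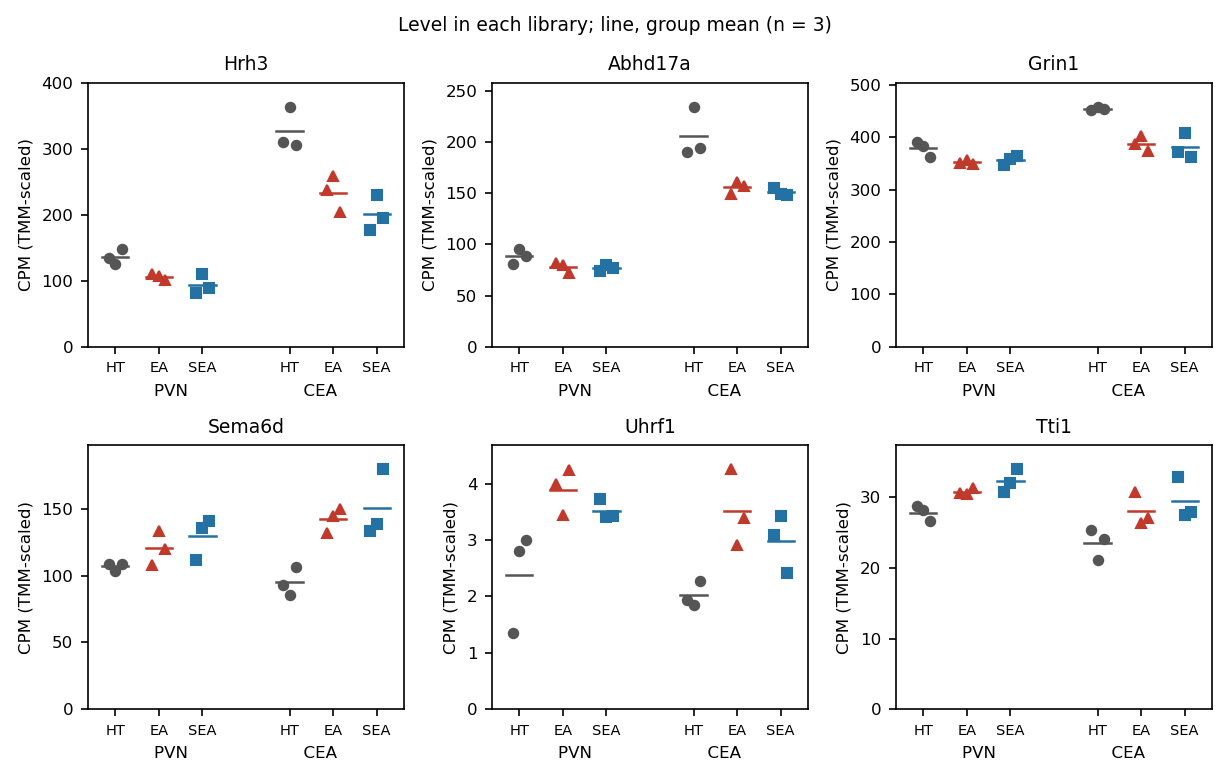
CPM (TMM-scaled, linear axis from 0) of 6 leading genes in each of the 18 libraries, grouped by region and treatment, with points for libraries and a line for the mean of 3. Hrh3 is lower in all 6 needled libraries than in the HT libraries of each region, and Uhrf1 and Tti1 are higher in all 6.

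Abhd17a encodes a hydrolase that removes palmitate from membrane proteins of the synapse. It stood at 81.3, 88.7 and 95 CPM in PVN HT and at 71.7 to 82.2 CPM in needled PVN libraries (median 78.2), and at 190, 194 and 234 CPM in CEA HT and 148 to 161 CPM in needled CEA libraries (median 152). The groups overlapped by a single library in the PVN and did not overlap in the CEA. It was lower by a log2 fold change of -0.31 with an SE of 0.06 (edgeR adjusted p = 0.23, DESeq2 adjusted p = 0.00441). Grin1, the subunit that every NMDA-type glutamate receptor needs, was lower by a small margin at 362 CPM or more in PVN HT against 348 to 364 CPM with needles and at 452, 455 and 458 CPM in CEA HT against 363 to 408 CPM with needles. This was a log2 fold change of -0.17 with an SE of 0.04 (edgeR adjusted p = 0.532, DESeq2 adjusted p = 0.0349). Tbkbp1, an adaptor that binds the kinase TBK1, had a log2 fold change of -0.21 (SE 0.05, DESeq2 adjusted p = 0.0342) and levels of 85.9 to 91.7 CPM in CEA HT against 67.8 to 76.1 CPM in needled rats, whereas its PVN ranges of 62.9 to 68.8 and 59.5 to 64.2 CPM overlapped.

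The other genes with the smallest p-values among lower genes were NEWGENE_1310561, Kctd17, LOC100360781, LOC100363537, Eme2, LOC680254, Pcp4 and Aldh3b1. None of the 12 lower genes passed by edgeR. Kctd17, a substrate adaptor of a ubiquitin ligase, stood at 258, 274 and 306 CPM in CEA HT and 174 to 216 CPM in needled CEA libraries (DESeq2 adjusted p = 0.0169 in the CEA), whereas its PVN ranges of 94.4 to 104 and 76.5 to 103 CPM overlapped. Pcp4, a small protein that binds calmodulin, had levels of 997 to 1690 CPM in CEA HT and 665 to 1140 CPM with needles. LOC100363537 showed its larger difference in the PVN, at 12.8, 14.3 and 14.7 CPM in HT and 3.91 to 10.4 CPM in needled rats (log2 fold change -1.11, SE 0.22, DESeq2 adjusted p = 0.00399 in the PVN). NEWGENE_1310561 was high in 3 of the 6 HT libraries, with 0.468, 8.33 and 16.5 CPM in CEA HT and 0.572, 1.35 and 5.98 CPM in PVN HT against at most 1.49 CPM in needled rats (DESeq2 adjusted p = 0.0349 over both regions and 0.0497 in the CEA). Polr2h, a subunit shared by the RNA polymerases, was named after its values were seen because DESeq2 called it (adjusted p = 0.00476). It had 0.668, 3.95 and 4.66 CPM in CEA HT and 0.321 to 0.588 CPM in needled CEA libraries, while its PVN ranges of 0.412 to 2.67 and 0 to 0.515 CPM overlapped, at a depth where 1 count was worth 0.0522 to 0.0803 CPM.

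Among genes with higher levels, Sema6d, a transmembrane semaphorin that guides axons, had the smallest p-value. Its level was 85.7, 93 and 107 CPM in CEA HT and 132 to 180 CPM in needled CEA libraries (median 142), with no overlap, and 104, 109 and 109 CPM in PVN HT and 108 to 141 CPM in needled PVN libraries (median 127), with overlap. Its log2 fold change was 0.42 over both regions (SE 0.09, edgeR adjusted p = 0.474, DESeq2 adjusted p = 0.0182), 0.21 (SE 0.08) in the PVN and 0.63 (SE 0.13) in the CEA. Uhrf1, which maintains DNA methylation during replication, was low at 1.36, 2.8 and 3 CPM in PVN HT against 3.41 to 4.25 CPM with needles, and at 1.84, 1.94 and 2.28 CPM in CEA HT against 2.41 to 4.26 CPM. Tti1, part of a chaperone complex for large kinases, stood at 26.6 to 28.8 CPM in PVN HT against 30.5 to 34 CPM and at 21.2 to 25.4 CPM in CEA HT against 26.4 to 32.9 CPM. For both genes every needled library exceeded every HT library of its region, with log2 fold changes of 0.66 (SE 0.16) for Uhrf1 and 0.23 (SE 0.06) for Tti1 and an edgeR adjusted p of 0.532 for each.

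Crot and Phgdh had the larger difference in the PVN. Crot, a peroxisomal carnitine octanoyltransferase, was at 21.3, 22.7 and 23.9 CPM in PVN HT and 26.8 to 36.4 CPM in needled rats (log2 fold change 0.44, SE 0.09, DESeq2 adjusted p = 0.0364 in the PVN). Phgdh, the first enzyme of serine synthesis, was at 80.9, 82.4 and 107 CPM in PVN HT and 110 to 126 CPM in needled rats (log2 fold change 0.37, SE 0.08, DESeq2 adjusted p = 0.0394 in the PVN). In the CEA their groups overlapped. The remaining genes of the 12 were Parm1, Ddr2, a collagen receptor kinase, Fgf11, an intracellular protein of the fibroblast growth factor family, Cdhr3, Srsf12, a splicing factor, Enpp3, an enzyme that cleaves extracellular nucleotides, and the globin gene Hba-a3. Parm1 and Srsf12 had the larger log2 fold change in the CEA (0.52, SE 0.13, and 0.53, SE 0.16). Ddr2 and Enpp3 had it in the PVN (0.57, SE 0.16, and 0.89, SE 0.24). Hba-a3 was read in some rats and not in others. It was listed at 0 in all 3 PVN HT libraries, at 0.134, 0 and 0 CPM in CEA HT replicates 1, 2 and 3, and at 0 to 5.79 CPM in the needled PVN libraries and 0.0574 to 5.2 CPM in the needled CEA libraries, so no fold change is given (DESeq2 adjusted p = 0.00476 over both regions). It belongs to a family of near-identical globin genes whose reads the counting could split.

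**Figure D2:**
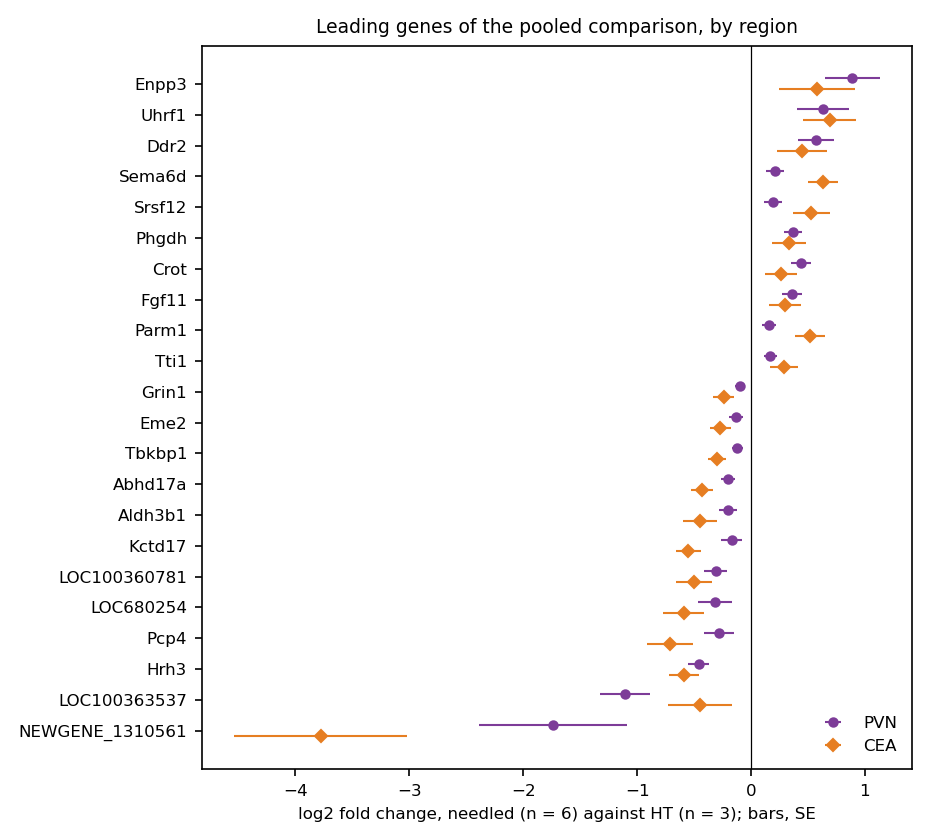
Log2 fold change (needled against HT, with SE bars) in the PVN (circles) and the CEA (diamonds) for 22 of the 24 leading genes of the pooled comparison, leaving out Hba-a3 and Cdhr3, which had too few counts in HT or in the CEA. Each gene has the same sign in both regions, as the choice of genes by the pooled p-value favours. The larger change is in the CEA for 11 of the 12 lower genes and for 5 of the 11 higher genes tested in both regions. Changes are larger in the CEA over all genes too, with a median absolute log2 fold change of 0.173 against 0.0753 in the PVN.

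Few genes separated needled from HT libraries in both regions. In the PVN 456 of 17539 genes had no overlap between needled and HT libraries (2.6%), and in the CEA 594 had none (3.39%). In both regions and in the same direction there were 5 (0.0285%): Hrh3 and RGD1305178 lower, and Uhrf1, Tti1 and Tmtc4 higher. Another 2 did not overlap in opposite directions. RGD1305178 and Tmtc4 were named after their values were seen. RGD1305178 was at 45.3 to 49.7 CPM in PVN HT against 42.1 to 44.1 CPM and at 55.9 to 57.9 CPM in CEA HT against 48.1 to 55.6 CPM. Tmtc4 was at 24 to 24.3 CPM in PVN HT against 24.7 to 29.1 CPM and at 15.5 to 18.1 CPM in CEA HT against 19.2 to 24.5 CPM.

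In the PVN, Crh, Avp and Trh were higher in every needled library than in every HT library, and none of them passed the adjusted threshold. Needled and HT libraries of the PVN did not overlap, in either direction, for 2.6% of all genes. Crh, which encodes corticotropin-releasing hormone, was at 4.24, 7.34 and 7.38 CPM in PVN HT and at 7.64 to 10.1 CPM in the 6 needled PVN libraries (median 8.81), so that the groups did not overlap. In the CEA it was at 0.601, 0.926 and 1.25 CPM in HT and 0.642 to 3.16 CPM in needled rats (median 2.5). By arm, PVN Crh was 6.32 ± 1.80 CPM in HT against 9.46 ± 0.564 CPM in EA and 8.12 ± 0.457 CPM for SEA rats (mean ± SD, n = 3 each). The log2 fold change of Crh was 0.78 over both regions (SE 0.24, edgeR adjusted p = 0.532) and 0.47 (SE 0.17) in the PVN. Avp, which encodes vasopressin, was at 171, 215 and 258 CPM in PVN HT and 260 to 373 CPM in needled rats, and Trh, which encodes thyrotropin-releasing hormone, was at 54.1, 74.4 and 84.9 CPM and 88.2 to 102 CPM. Their PVN log2 fold changes were 0.49 (SE 0.13) and 0.43 (SE 0.11), and in the CEA the groups overlapped for both genes. Oxt, which encodes oxytocin, overlapped in both regions, with 148, 548 and 569 CPM in PVN HT against 472 to 653 CPM. The lowest HT library for Crh, Avp, Trh and Oxt was PVN HT replicate 3 in every case. That library also held the smallest sum of PVN neuron markers, 707 CPM against 1140 and 1170 CPM in the other HT libraries and 1100 to 1410 CPM in needled ones. The marker list includes these same genes, so its sum is no separate measure of the tissue. Without PVN HT replicate 3 the PVN log2 fold change was 0.25 for Crh, 0.35 for Avp, 0.27 for Trh and -0.01 for Oxt, against 0.47, 0.49, 0.43 and 0.40 with it, and the other PVN HT libraries still lay below every needled PVN library for Crh, Avp and Trh. In the CEA, log2 fold changes of 0.53 for Avp, 0.59 for Trh and 0.83 for Oxt became 1.53, 1.57 and 2.16 without CEA HT replicate 2. Without CEA HT replicate 1 they were 0.1, 0.21 and 0.5. In these bulk samples, fewer cells of a type and less RNA per cell cannot be told apart.

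Of 23 neuropeptide and stress-axis genes tested, 0 passed the adjusted threshold in the pooled comparison. At an unadjusted p under 0.05, 2 were higher (Crh and Avpr1a, a vasopressin receptor) and 0 were lower, against 4.24 and 4.9% of all genes. The median log2 fold change was 0.07, and 0.02 to 0.25 when single libraries were left out. In the PVN alone 5 were higher and 0 lower, against 2.37 and 2.9% of all genes, with a median of 0.13. In the CEA 3 of 21 were higher and 1 lower, against 3.61 and 4.12%, with 9 below 0 and a median of 0.03. The summed level of the list was 1270 to 1780 CPM in PVN HT and 1810 to 2140 CPM in needled PVN libraries, and 1380 to 2080 CPM in CEA HT and 871 to 1730 CPM in needled CEA libraries, so that the sum stood higher with needles in the PVN only and its median was lower in the CEA. Sst, which encodes somatostatin and was named after its values were seen, was at 163, 203 and 211 CPM in PVN HT and 231 to 297 CPM in needled rats (DESeq2 adjusted p = 0.0173 in the PVN, edgeR adjusted p = 0.783). In the CEA its ranges of 152 to 255 and 111 to 203 CPM overlapped. Gfap, a filament protein of astrocytes, stood at 223, 286 and 301 CPM in PVN HT and 321 to 384 CPM in needled rats (DESeq2 adjusted p = 0.0428, edgeR adjusted p = 0.827), was also named after its values were seen, and overlapped in the CEA at 324 to 462 and 350 to 585 CPM. The 7 astrocyte markers did not move together in the PVN, where 4 had log2 fold changes above 0 and 3 below. Aldh1l1, another astrocyte gene, was at 24.2 to 31.4 CPM in PVN HT and 22.7 to 27.2 CPM in needled PVN libraries.

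Few genes that respond to neuronal activity reached even the unadjusted threshold. Of 20 immediate early genes, 0 were higher and 0 lower at an unadjusted p under 0.05 over both regions, and the median log2 fold change was 0.02, with 0.21 in the PVN and -0.10 in the CEA. In the PVN alone 16 of the 20 were above 0 and 1 was lower at that threshold, Nr4a2, at 13.7 to 18.9 CPM in HT and 10.9 to 15.2 CPM with needles. Of all 16973 PVN genes 8558 were above 0, and 2.9% were lower at that threshold. Fos, the marker of recent neuronal firing in most use, was at 11.3 to 19.9 CPM in PVN HT against 9.47 to 24.5 CPM and at 4.01 to 7.04 CPM in CEA HT against 3.9 to 14.8 CPM. Within the needled rats Fos was lower in EA than in SEA, by a log2 fold change of -0.68 (SE 0.21, edgeR adjusted p = 0.689), with 9.47 to 13.9 CPM in PVN EA and 16 to 24.5 CPM in PVN SEA. In the CEA the arms overlapped, at 3.9 to 7.54 CPM in EA and 7.18 to 14.8 CPM in SEA, where replicate 3 was the highest. Egr1 had a log2 fold change of -0.06 (SE 0.19). Tissue was taken a day after the last needling.

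Genes raised by glucocorticoids were spread widely among the HT libraries. Of 15 tested, 0 were higher and 1 (Sult1a1, a sulfotransferase) was lower at an unadjusted p under 0.05, against 4.24 and 4.9% of all genes. The median log2 fold change was -0.27 over both regions, and 0.12 without PVN HT replicate 3, so that its direction rested on that library. Fkbp5 was at 28.5, 28.5 and 94.3 CPM in PVN HT and 32 to 67.1 CPM in needled PVN libraries, and at 67.3, 95.4 and 166 CPM in CEA HT and 56.3 to 120 CPM in needled CEA libraries. PVN HT replicate 3 and CEA HT replicate 2 were the high libraries. The same held for Sult1a1, at 48.2 CPM in PVN HT replicate 3 and 93.8 CPM in CEA HT replicate 2 against 11 to 29 CPM in the other HT libraries, and for the metallothionein gene Mt2A, at 53.6 and 177 CPM against 12.4 to 58.3 CPM. Among needled rats EA replicate 1 was the highest for all 3 genes in both regions, with Mt2A at 57.8 CPM in the PVN and 106 CPM in the CEA. By arm, Sult1a1 was at 11, 16.7 and 48.2 CPM in PVN HT, 8.14, 23.8 and 37.1 CPM in PVN EA and 8.48, 8.66 and 8.83 CPM in PVN SEA, so that EA and SEA overlapped. The log2 fold change of EA against SEA was 1.27 for Sult1a1 (SE 0.34) and 1.34 for Mt2A (SE 0.36), with an edgeR adjusted p of 0.529 for each.

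Most cytosolic ribosomal protein genes and nuclear genes of oxidative phosphorylation had log2 fold changes below 0 in the CEA, and the size of this difference rested largely on a single HT library. Of 86 cytosolic ribosomal protein genes, 24 were lower and 0 higher at an unadjusted p under 0.05 over both regions, against 4.9 and 4.24% of all genes, and 81 had a log2 fold change below 0, against 51.1% of all genes. The median was -0.23 over both regions, 0.00 in the PVN and -0.44 in the CEA. Of 73 nuclear genes of oxidative phosphorylation, 24 were lower and 0 higher, with a median of -0.19, -0.02 in the PVN and -0.34 in the CEA. Examples were Uqcr11 and Cox6a1, subunits of respiratory complexes, at 442 to 612 CPM in CEA HT against 300 to 419 CPM and at 690 to 1200 CPM against 553 to 744 CPM. The summed level of 90 ribosomal protein genes was 15100, 26400 and 16700 CPM in CEA HT replicates 1, 2 and 3 and 10700 to 15900 CPM in needled CEA libraries. Without CEA HT replicate 2, 3 of the 86 ribosomal protein genes and 3 of the 73 nuclear genes of oxidative phosphorylation were lower at that threshold over both regions, with medians of -0.08 and -0.05. In the CEA alone the counts went from 38 of 86 and 23 of 73 to 3 and 3 without it, with medians of -0.17 and -0.08, while the share of all genes that were lower went from 4.12 to 2.13% in the CEA and from 4.9 to 2.81% over both regions. For Uqcr11 the other 2 CEA HT libraries, at 442 and 525 CPM, still lay above every needled CEA library. Mitochondrial genome transcripts had a median of -0.21, with 3 of 24 lower, and did not follow that library, since their median was -0.27 without it. Their median moved most with CEA EA replicate 2, whose sum was 37200 CPM against 106000 to 143000 CPM in the other needled CEA libraries, and without which it was -0.10. Members of the ribosomal family have near-identical copies, and Rpl7a in particular was at 112 CPM in CEA HT replicate 1 and at most 10.4 CPM in every other library.

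**Figure D3:**
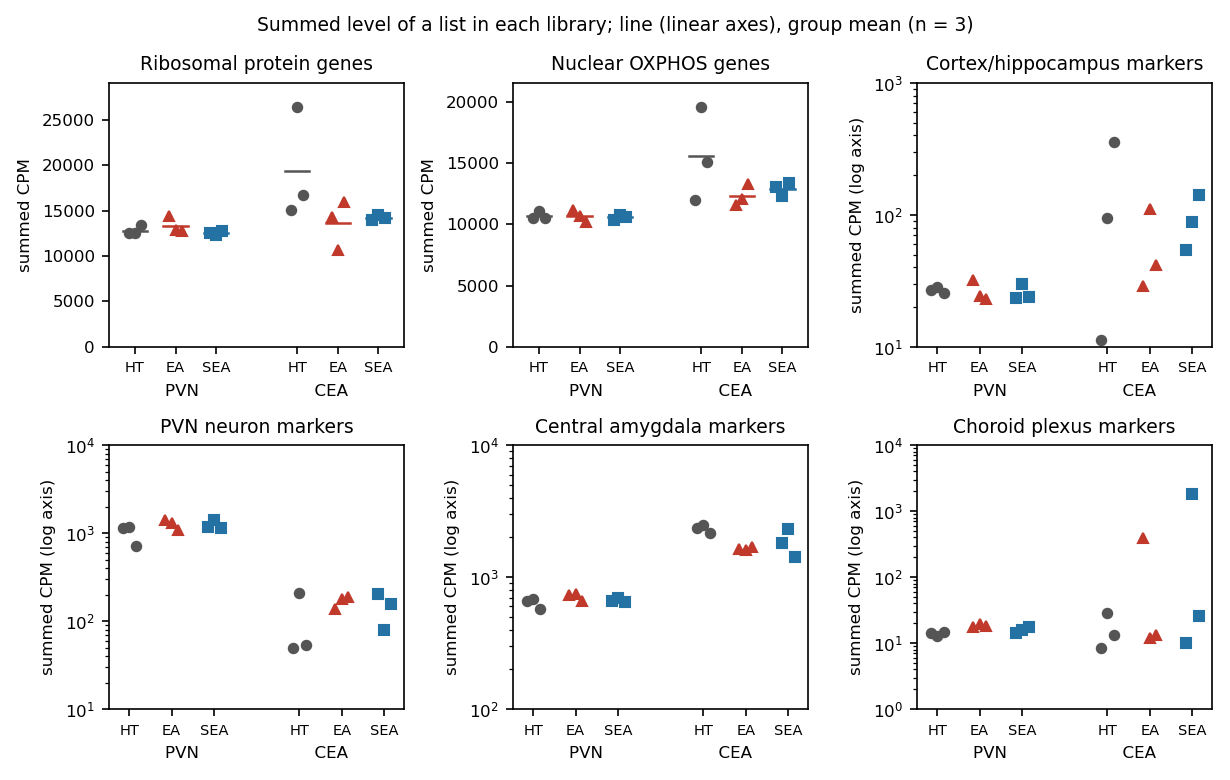
Summed CPM of 6 gene lists in each library, by region and treatment; ribosomal protein and nuclear oxidative phosphorylation genes are on linear axes from 0 with group means, and the marker lists are on log axes. CEA HT replicate 2 has the largest sum of ribosomal protein genes, 26400 CPM, and the choroid plexus markers reach 1820 CPM in CEA SEA replicate 2.

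Synaptic, opioid and ErbB genes showed few differences. The counts of these lists at an unadjusted p under 0.05 are to be read against 4.24% of all genes higher and 4.9% lower, a share that 1 gene of a short list already comes near or passes. Of 14 postsynaptic genes 2 were lower (Grin1 and Nrgn, a calmodulin-binding protein of dendrites) at an unadjusted p under 0.05 and 0 were higher, with a median of -0.07. Nrgn was at 1710 to 2170 CPM in CEA HT and 472 to 1760 CPM in needled CEA libraries, and its PVN ranges of 110 to 127 and 111 to 122 CPM overlapped. Of 8 opioid peptide and receptor genes 1 was higher (Oprl1, the nociceptin receptor, log2 fold change 0.27, SE 0.12). Oprm1, the mu opioid receptor, had a log2 fold change of 0.26 (SE 0.25), and Penk, the enkephalin precursor, -0.31 (SE 0.16). Of 8 ErbB genes 1 was higher: Erbb4, a neuregulin receptor of inhibitory neurons, at 7.95, 15.7 and 18.4 CPM in CEA HT and 21.2 to 27.3 CPM in needled rats (log2 fold change 0.81, SE 0.22, in the CEA and 0.12, SE 0.12, in the PVN). Drd2, the dopamine D2 receptor, and Agtr2, an angiotensin receptor, had log2 fold changes of -0.13 (SE 0.20) and -0.31 (SE 0.54). The clock genes (1 of 14 lower, Ciart), heat shock genes (1 of 12 lower, Hspe1), acute phase and cytokine genes (1 of 13 higher, Il1r1) and RT1 histocompatibility genes (1 of 23 lower, RT1-N2) had medians from -0.06 to 0.03.

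**Figure D4:**
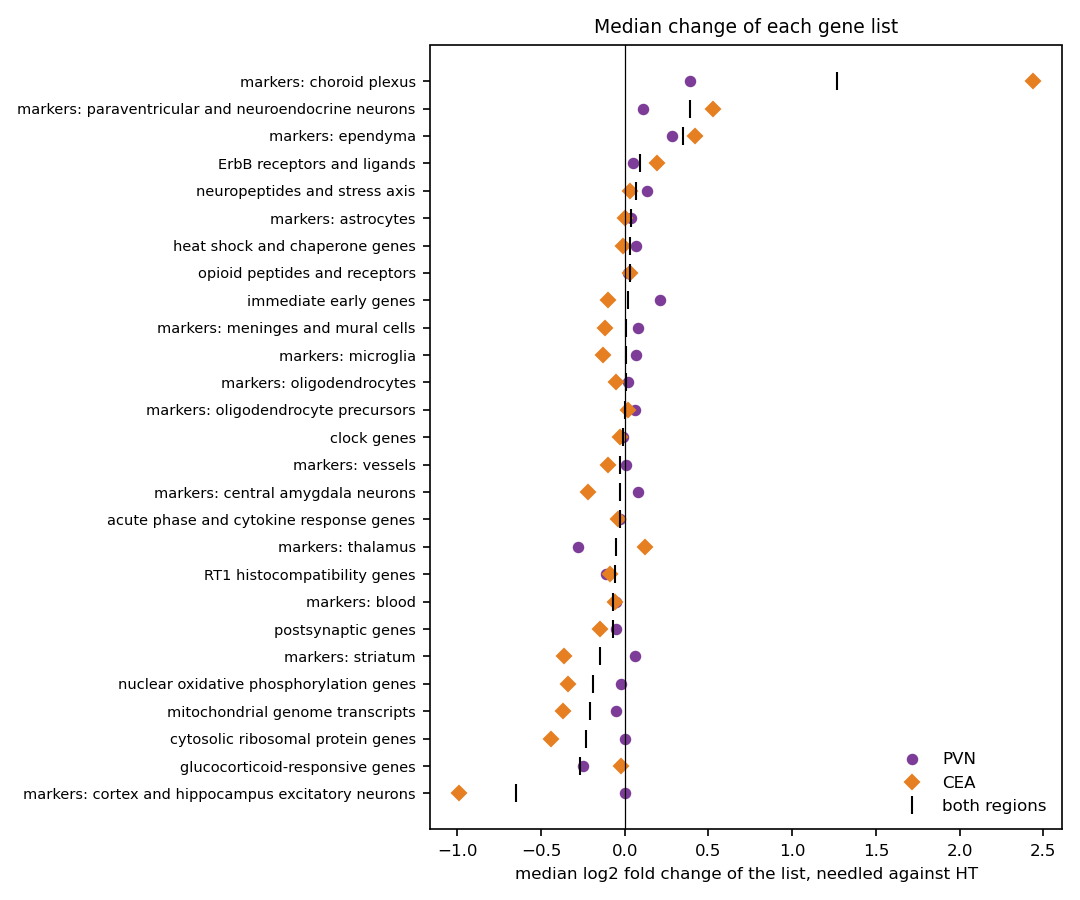
Median log2 fold change (needled against HT) of each of the 27 gene lists in the PVN (circles), in the CEA (diamonds) and over both regions (bars). In 18 lists the median over both regions is within 0.1 of 0, and the CEA medians spread wider than the PVN medians, from -0.99 for cortex and hippocampus markers to 2.44 for choroid plexus markers.

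In the CEA, the difference between needled and HT libraries ran along the difference between the regions. Of 602 genes with higher levels in the needled CEA at an unadjusted p under 0.05, 85% had the higher mean level in the PVN, and of 667 with lower levels 10.8% had, against 46.9% of all 16370 genes tested in both regions. In the PVN these shares were 55.5% of 373 and 34.2% of 480. Among the 24 leading genes of the pooled comparison, 9 of the 12 higher genes and 0 of the 12 lower genes had the higher mean in the PVN. These shares are descriptions, since genes are not independent replicates and the CEA libraries enter both quantities. The HT libraries of the CEA stood farther from the PVN than the needled ones did, with a median correlation with PVN libraries of 0.917, 0.927 and 0.93 against 0.935 to 0.949.

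Marker lists of the CEA and of tissue around it varied between libraries. The sum of 11 PVN neuron markers was 49.5, 207 and 54.1 CPM in CEA HT replicates 1, 2 and 3 and 80.1 to 201 CPM in needled CEA libraries. Of the 9 tested in the CEA, 7 had log2 fold changes above 0 and 2 below, with a median of 0.53. At an unadjusted p under 0.05, 1 of the 9 was higher and 0 were lower. Sim1, a transcription factor of PVN neurons named after its values were seen, was at 0, 0.0657 and 0 CPM in CEA HT and 0.287 to 0.816 CPM in all 6 needled CEA libraries, and a count of 0 allowed up to 0.185 to 0.2 CPM in those HT libraries. The sum of 8 central amygdala markers was 2150 to 2470 CPM in CEA HT and 1410 to 2320 CPM with needles, that of cortex and hippocampus markers was 11.2, 94.8 and 359 CPM and 29 to 141 CPM, and 8 of 8 striatum markers had log2 fold changes below 0 in the CEA, with a median of -0.36, against 52.3% of all genes below 0. The striatum marker sums were 7740, 4410 and 4520 CPM in CEA HT replicates 1, 2 and 3 and 2510 to 7300 CPM with needles. Without CEA HT replicate 1, 5 of the 8 were below 0 in the CEA and the median was -0.01. The choroid plexus markers were at 8.49 to 28.3 CPM in CEA HT and reached 1820 CPM in CEA SEA replicate 2 and 397 CPM in CEA EA replicate 1, with Ttr, the transthyretin gene that marks this tissue, at 1680 and 355 CPM. The part of such markers in the CEA differences was not tested. In the PVN the choroid plexus markers summed to 13 to 14.7 CPM in HT and 14.2 to 19.3 CPM with needles, and Ttr was at most 1.93 CPM. Among the other marker lists, the medians over both regions were 0.35 for 5 ependyma genes, -0.05 for 7 thalamus genes and -0.07 to 0.04 for blood, oligodendrocytes, their precursors, astrocytes, microglia, vessels and meninges. The ependyma median was 0.11 without CEA HT replicate 3 and 0.7 without CEA HT replicate 2.

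The 22 genes that DESeq2 called in the CEA included 16 that were higher, of which 14 had the higher mean in the PVN. Those given here were named after their values were seen. Grin2d, an NMDA receptor subunit, was at 22.3 to 23.3 CPM in CEA HT and 28.8 to 43.1 CPM with needles, against 62.2 to 76 CPM over all PVN libraries (DESeq2 adjusted p = 0.0169). Nrp2, a receptor for semaphorins, was at 9.02 to 10.8 CPM and 13 to 18.3 CPM, against 47.1 to 61.3 CPM in the PVN (0.0169). Fgf1, a growth factor, was at 10.5 to 17.4 CPM and 21.8 to 34.3 CPM (0.0114), and Zdbf2, an imprinted gene, was at 19.6 to 27.6 CPM and 33.4 to 45.5 CPM (0.0114), against 120 to 159 CPM in the PVN. Gpr165 was at 12.2 to 14.8 CPM and 17.5 to 38.1 CPM, against 150 to 183 CPM in the PVN (0.0169). For each of these 5 genes the needled and HT libraries of the CEA did not overlap, as was so for 3.39% of all genes. Picking them from the calls of this same contrast favours that. Every needled CEA level was below every PVN level.

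Whether the effect of needling differed between the regions was tested as an interaction. No gene passed by edgeR: 0 of 17539 (0%), with 1142 at an unadjusted p under 0.05 (6.51%) against 877 if no gene differed. This count ran from 792 without PVN HT replicate 1 to 2805 without CEA HT replicate 1, and was 1894 without CEA HT replicate 3. DESeq2 called 16 of 20196 (0.0792%), all with the lower log2 fold change in the PVN. Some of these calls rest on few libraries. The highest library held 43.8% of all counts for Rlim and 37.7% for Gng11, and 3 and 4 libraries had 0 counts. Grin2d was among the calls, with a difference of -0.73 between the PVN and CEA log2 fold changes (SE 0.14, edgeR adjusted p = 0.258, DESeq2 adjusted p = 0.00244), as was Nrp2 (-0.72, SE 0.15, DESeq2 adjusted p = 0.0155). Their highest libraries held 8.63 and 10.5% of the counts. Across the 16370 genes tested in both regions, 56.5% of the log2 fold changes had the same sign in the PVN and the CEA, with a Pearson correlation of 0.20 and a Spearman correlation of 0.15 across genes. An unadjusted p under 0.05 in both regions was reached by 85 genes, and 66 of these 85 had the same sign. They are 9.95% of the 854 in the PVN, against 7.73% of all genes tested in the CEA. They are 6.7% of the 1269 in the CEA, against 5.27% of all genes tested in the PVN.

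The arms that were pooled as needled were then compared with each other. By edgeR 0 of 17204 genes (0%) differed between EA and SEA with region as a covariate, and 838 had an unadjusted p under 0.05 (4.87%) against 860 if no gene differed. DESeq2 called 42 of 19634 (0.214%), 21 in each direction. The smallest p was that of Wfdc1, named after its values were seen, with a log2 fold change of 0.57 in EA against SEA (SE 0.08, edgeR adjusted p = 0.114, DESeq2 adjusted p = 1.33e-06). Its level was 25.7 to 31.6 CPM in PVN EA against 18.3 to 20.1 in PVN SEA and 41.3 to 46.4 CPM in CEA EA against 26.1 to 33.1 in CEA SEA. The HT libraries spanned both arms, at 18.2, 27.3 and 55.3 CPM in PVN replicates 1, 2 and 3 and 35.7, 108 and 50.6 CPM in CEA replicates 1, 2 and 3, and the highest were those that were highest for Fkbp5, Sult1a1 and Mt2A. For Hrh3 the same contrast gave 0.20 (SE 0.09, adjusted p = 0.966), with SEA lower than EA, and for Sema6d -0.09 (SE 0.09).

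Whether PVN and CEA libraries came from the same rats could not be settled. The design gives 3 rats a group, while the methods state that brain tissue of a single animal was not used throughout and that different animals of a batch supplied it. When each library was expressed as its deviation from the mean of its group, every PVN library correlated most with a different CEA library of its own treatment. These 9 correlations were 0.03 to 0.20 across 17539 genes and 0.25 to 0.50 across the 132 to 167 genes that varied most. The pairs were picked as the highest, and centring on the mean of 3 libraries pushes the remaining correlations below 0, so these values are a description and no test of a shared rat. The joined libraries had the same replicate number in 5 of 9 cases and exchanged numbers 2 and 3 in the HT and EA groups. The columns of the count table set the same libraries side by side, an order that uses no values. Hba-a3, set against this order after its values were seen, was at 4.27 and 5.2 CPM in PVN and CEA SEA replicate 1. In SEA replicates 2 and 3 it was at 5.28 and 5.06 CPM and at 0 and 0.0803 CPM. In the joined EA libraries it was at 1.02 and 1.03, 5.79 and 4.42, and 0.104 and 0.0574 CPM. If the 18 libraries came from 9 rats, the pooled comparison had 3 HT and 6 needled rats. A fit that joined these libraries, chosen after seeing the data, gave an average correlation of 0.078 between them and 0 genes past the adjusted threshold (limma with voom, 1295 at an unadjusted p under 0.05). The comparisons within a region hold no such joined libraries and do not depend on this.

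**Figure D5:**
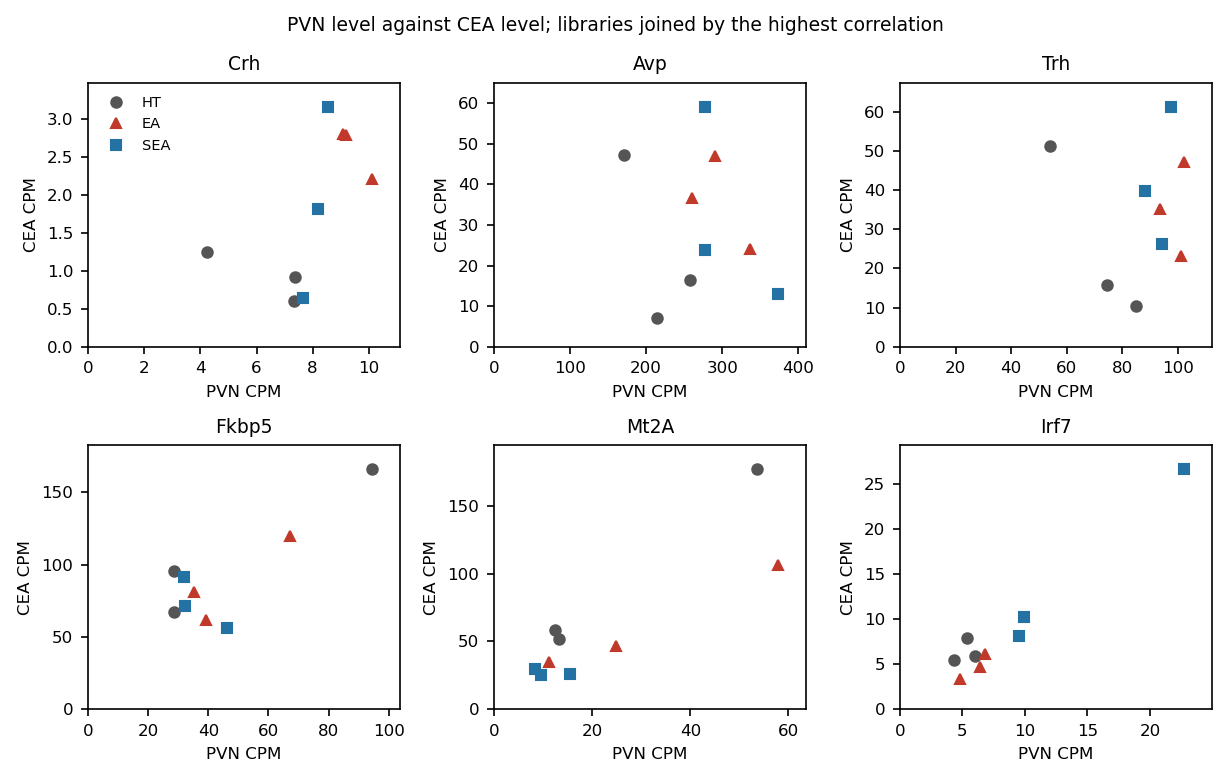
CEA level against PVN level (CPM, linear axes from 0) of 6 genes, with each point a PVN library and the CEA library of the same treatment that correlated most with it (circles HT, triangles EA, squares SEA; joined after seeing the data). Fkbp5, Mt2A and Irf7 are high in both regions of the same joined libraries, with Irf7 at 22.7 and 26.6 CPM in SEA replicate 2, whereas for Crh, Avp and Trh the library highest in the PVN is not the one highest in the CEA.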

How the data were processed

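The 18 libraries used here were strand-specific mRNA libraries of PVN and CEA tissue. The authors mapped reads with HISAT2 and counted them over genes with featureCounts, and the deposited values are whole-number counts without normalization. Versions and the handling of reads that map to several places were not given in the sources used here. The build that the methods name does not match the table, whose largest gene end on chromosome 1 is 282724300, past the end of that chromosome, so coordinates are given as the table has them. A stray second header line was left out. It exchanges the numbers of CEA EA replicates 2 and 3, and the numbers here follow the sample titles. The table held 35032 genes, 32883 with an Ensembl identifier.

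Counts were tested in R 4.3.3 with edgeR 4.0.16 (filterByExpr, TMM, quasi-likelihood test, two-sided, Benjamini-Hochberg over all genes tested, threshold 0.05), with region as a covariate in pooled fits. Printed levels are TMM-scaled CPM. DESeq2 1.42.0 and limma 3.58.1 served as alternatives. The SE was taken from the fold change and its F statistic, and the 95% interval used 15 residual degrees of freedom. Groups came from the sample titles. Labels do not tie libraries to animals, so p-values measure only the spread between libraries. Replicate numbers did not pair libraries of a region (correlations -0.28 to 0.30, 2 of 18 over 0.1). A count of 0 allows up to 3 counts, which covers counting error only, as reads carried no molecular identifiers.

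The comparison and the 27 gene lists (14 of them markers) were chosen with earlier results of these data known, and no set test was run. Named were, for higher and for lower levels, the 12 genes of smallest p with a symbol and a mean of at least 1 CPM (clone names counted as no symbol), Crh, Avp, Oxt, Trh, Fkbp5, Fos, Egr1, Oprm1, Drd2 and Agtr2, the 2 genes of smallest p of every list, and genes past the threshold in the other edgeR fits, of which there were 0. Another gene fixed with these is not analysed here. Other genes are said to be named after their values were seen. Leaving out each library within a region was added for Crh, Avp, Trh, Oxt and the striatum markers after the data were seen. Alternatives were another tool, RLE factors, no filter or at least 1 CPM in 6 libraries, a model of 6 groups, a replicate block, and leaving out each library. Only the pooled edgeR fit was tried on simulated data, which had independent libraries and no difference between the regions.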

Additional observations from a re-analysis of the deposited data

Results flagged for a closer look

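Among the named genes, 204 groups of 6 needled libraries of a region were screened for a library far from the others, and 19 had one. Chance would give about 10 among independent genes, but genes vary together within a library and some were named for their values, so the excess is not read as a result. Most of the 19 belonged to a few libraries. CEA SEA replicate 2 was the highest for Ttr (1680 CPM, next 355), Kl (25.9 CPM), Neurod6 (2.43 CPM) and Emx1 (1.12 CPM) and the lowest for Nrp2 (13 CPM). The interferon-induced genes Irf7 and Usp18 were highest there too, at 26.6 CPM (next 10.2) and 9.92 CPM (next 3.55), and Irf7 and Isg15 were highest in PVN SEA replicate 2, at 22.7 CPM (next 9.91) and 14.4 CPM (next 7.18). EA replicate 1 was the highest for Mt2A in the PVN (57.8 CPM, next 24.8) and the CEA (106 CPM, next 46.2) and for Sult1a1 in the CEA (49.2 CPM, next 21.7), and the lowest for Ermn, an oligodendrocyte gene, in the PVN (66.4 CPM). Nr4a1, an immediate early gene, was highest in PVN EA replicate 3 (49.2 CPM, next 16.7) and CEA EA replicate 2 (64.5 CPM, next 34.1), which are joined libraries in the sense given above. PVN EA replicate 3 was also the lowest for Rpl7a (3.93 CPM). CEA SEA replicate 3 was the highest for Fos (14.8 CPM, next 7.69) and the lowest for Ddr2 (2.81 CPM, next 3.6). PVN EA replicate 2 was the highest for RGD1305178 (44.1 CPM, next 42.8).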

How the results depend on the processing

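With edgeR the count of genes past the adjusted threshold was 0 in all 5 comparisons and stayed 0 with RLE factors and without a filter, and in the pooled comparison also with 6 groups, with the stricter filter and with the joined libraries. DESeq2 gave 9 in the pooled comparison, 18 in the PVN, 22 in the CEA, 42 for EA against SEA and 16 for the interaction; by the study's rule of an unadjusted p under 0.05 it gave 1867 in the pooled comparison (1014 higher, 853 lower). With the replicate number as a block the interaction gave 1 gene and the other comparisons 0. Leaving out single libraries gave 0 to 1 genes in the pooled comparison (1 without CEA EA replicate 2), 0 to 3 in the PVN (1, 2 and 3 without HT replicates 1, 2 and 3), 0 to 2 in the CEA (2 without HT replicate 1), 0 to 2 for EA against SEA (2 without PVN SEA replicate 2) and 0 to 8 for the interaction (8 without CEA HT replicate 2, 1 without CEA SEA replicate 3). The count at an unadjusted p under 0.05 ran from 1133 without CEA HT replicate 2 to 2253 without CEA HT replicate 1 in the pooled comparison, and was 2777 without CEA HT replicate 1 in the CEA and 2805 and 1894 without CEA HT replicates 1 and 3 for the interaction. Of 2545 values of 102 named genes under these alternatives, 2528 kept their direction and their side of the threshold, 9 came past it and 8 turned. The latter were Agtr2 with joined libraries (0.19), Egr1 (0.04), Drd2 (0.09) and Flt1 (0.04) without CEA HT replicate 1, and Nr4a2 (0.14), Lef1 (0.02), Flt1 (0.04) and Slc17a7 (0.11) without CEA HT replicate 3. The lowest log2 fold change without a single library was -0.17 for Egr1, -0.24 for Drd2, -0.17 for Flt1, -0.77 for Nr4a2, -0.48 for Lef1 and -0.91 for Slc17a7. Of the list medians farther than 0.1 from 0, those of the cortex and hippocampus markers (-0.65 to 0.15 without CEA HT replicate 3), the glucocorticoid-responsive genes (-0.27 to 0.12 without PVN HT replicate 3) and the striatum markers (-0.15 to 0.05 without CEA HT replicate 1) turned; many of those nearer to 0 turned too, such as the thalamus (0.18) and acute phase (0.09) lists without CEA HT replicate 3, blood (0.16) without PVN HT replicate 2 and central amygdala (0.07) without CEA HT replicate 2. The cause of these changes was not tested. The depth and 3 libraries a group leave a median SE of 0.117 over both regions and 0.19 in the CEA.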

Other observations

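Of the genes that DESeq2 called between EA and SEA, Irf7, Isg15 and Usp18 are described here. They were picked after their values were seen, and none passed by edgeR. Irf7, a transcription factor of the interferon response, was at 9.91, 22.7 and 9.56 CPM in PVN SEA replicates 1, 2 and 3 and at 6.42, 6.84 and 4.83 CPM in PVN EA replicates 1, 2 and 3, with 4.3 to 6.04 CPM in PVN HT. In the CEA it was at 10.2, 26.6 and 8.11 CPM in SEA and 3.33 to 6.14 CPM in EA. The SEA and EA libraries did not overlap in either region, and replicate 2 was the highest SEA library in both. The share of all genes without overlap between these arms was not counted. Usp18, a protease that removes the ubiquitin-like protein ISG15, was at 3.67 to 10.1 CPM in PVN SEA against 1.33 to 2.61 CPM in PVN EA, and Isg15 itself was at 6.55 to 14.4 CPM against 4.62 to 6.05 CPM. In EA against SEA their log2 fold changes were -1.44 (SE 0.32) for Irf7, -1.82 (SE 0.37) for Usp18 and -1.01 (SE 0.23) for Isg15, with adjusted p-values of 0.354, 0.289 and 0.404 by edgeR and 0.0034, 0.000982 and 0.0211 by DESeq2.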
